A study of Caenorhabditis elegans with 96 samples.

Results

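Levels of 10 genes that decide between sperm and oocyte in the hermaphrodite germline of the nematode Caenorhabditis elegans were followed in RNA sequencing counts from a cross of the strains N2 and CB4856. The genes were fog-1, fog-3, fbf-1, fbf-2, tra-1, tra-2, fem-1, fem-3, gld-1 and nos-3, chosen by name as regulators of germline sex determination. All 10 were found by their WBGene identifiers among the 46904 gene identifiers of the count files. The libraries comprised 4 of N2, the laboratory reference strain, 7 of CB4856, a wild isolate from Hawaii, and 85 of recombinant inbred advanced intercross lines (RIAILs), each of which is an inbred mosaic of both parental genomes and had 1 library. Every culture had the treatment label Cntrl and no transgene or induced mutation was named in the labels. Eggs were taken by bleaching from adults kept on Escherichia coli OP50, the hatched larvae were synchronised without food and then fed E. coli HT115, and whole animals were harvested at the labelled L4 stage, the last larval stage. The titles place the libraries in 7 batches, numbered 2, 3, 4, 6, 7, 8 and 9, with CB4856 in each, N2 in batches 3, 6, 8 and 9, and 7 to 19 lines in each. Nothing in the labels says whether parental libraries of a strain came from separate cultures, so their p-values measure the spread between libraries, which may be technical in part.

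A C. elegans hermaphrodite makes a limited store of sperm as a larva and then turns the same germline over to oocytes for the rest of its life. Germ cells take the sperm fate while FOG-1, FOG-3 and the FEM proteins act, and the switch to oocytes depends on repression of fem-3, in which FBF-1, FBF-2 and NOS-3 act on its messenger RNA. TRA-2 restrains the FEM proteins and GLD-1 in turn represses the translation of tra-2. Much of this control is exerted on translation or protein stability, so an RNA level is not a measure of the activity of these regulators. The tra and fem genes also set sex in the soma, and whole animals were sampled. In such bulk samples, fewer cells of a type and less RNA per cell cannot be told apart.

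Depth was even, with 22069702 to 24001627 counts on genes per library. Oocyte markers stood above sperm markers in every library. The 13 oocyte genes summed to between 6485 and 16614 counts per 1000000 gene counts (CPM) over all libraries, and the 16 sperm genes to between 70.3 and 519. The 6 vitellogenin genes, which encode yolk proteins of the adult hermaphrodite intestine, summed to 17246 CPM at the lowest and 73777 at the highest, so adult yolk RNA was present in every library labelled L4. The 8 moult genes summed to between 47.9 and 273 CPM. A list of 8 genes of male sensory neurons, of which klp-6 and cil-7 are also used by hermaphrodite neurons, summed to between 0.849 and 3.41 CPM in all libraries but those of lines QX501 and QX505. The parents differed in these lists, but not alike in every batch. In batches 3, 6 and 8 the summed sperm list was 209, 348 and 290 CPM in N2 and 71.1, 119 and 132 in CB4856. The oocyte list was 13228, 10383 and 10314 CPM in N2 and 16614, 15712 and 15550 in CB4856. In batch 9 the order was the reverse. The sperm list there was 108.5 CPM in N2 and 113.6 in CB4856, and the oocyte list 15606 and 14313. Of the sperm genes 12 of 15 tested were higher in N2, where 17.9% of all genes were, with a median log2 difference of 1.44. Of the oocyte genes 10 of 13, and of the general germline genes 6 of 12, were higher in CB4856, where 16% of all genes were, with medians of -0.43 and -0.29. With batch as a replicate block, where 14.9% of all genes passed, 3 sperm genes (peel-1 among them), 2 oocyte and 3 general germline genes passed. The medians were then 1.26, -0.44 and -0.28. The gene peel-1 had 0 CPM in every CB4856 library, the only sperm gene that did, and it is counted in the sperm list throughout. Its call is thus one of RNA present in 1 strain only. The part of these lists in the results on the parents was not tested. Fits with the germline list as a covariate are given beside those results. The mean log2 level of that list itself differed between the strains, at 7.20 ± 0.15 in N2 and 7.48 ± 0.16 in CB4856 (SD). These fits therefore cannot tell the list and the strain apart.

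Among the genes, gld-1, a KH-domain RNA-binding repressor of translation, was by far the most abundant per kilobase of exon. Over the 85 lines its mean level was 639 CPM per kilobase, followed by nos-3, a Nanos-family RNA-binding protein, with 86.4 CPM per kilobase. The FEM genes came next, with fem-3 at 36.5 and fem-1 at 28.9 CPM per kilobase, and then tra-2 at 15.7 and fog-1 at 12.6. The nearly identical Pumilio-family genes fbf-1 and fbf-2 stood at 9.82 and 8.83 CPM per kilobase, tra-1 at 7.87 and fog-3 last at 1.83. The order of gld-1 over nos-3, nos-3 over fem-3 and fem-1 over tra-2 held in 85 of 85 lines, and that of tra-1 over fog-3 in 84. The neighbours fog-1 and fbf-1, fbf-1 and fbf-2, and fbf-2 and tra-1 held their order in 67, 66 and 63 of the lines, so these 3 steps lie within the spread among lines. Since reads that map to several places were not counted, and 3.86% to 7.46% of reads were of that kind, the levels of fbf-1 and fbf-2 are uncertain.

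**Figure D1:**
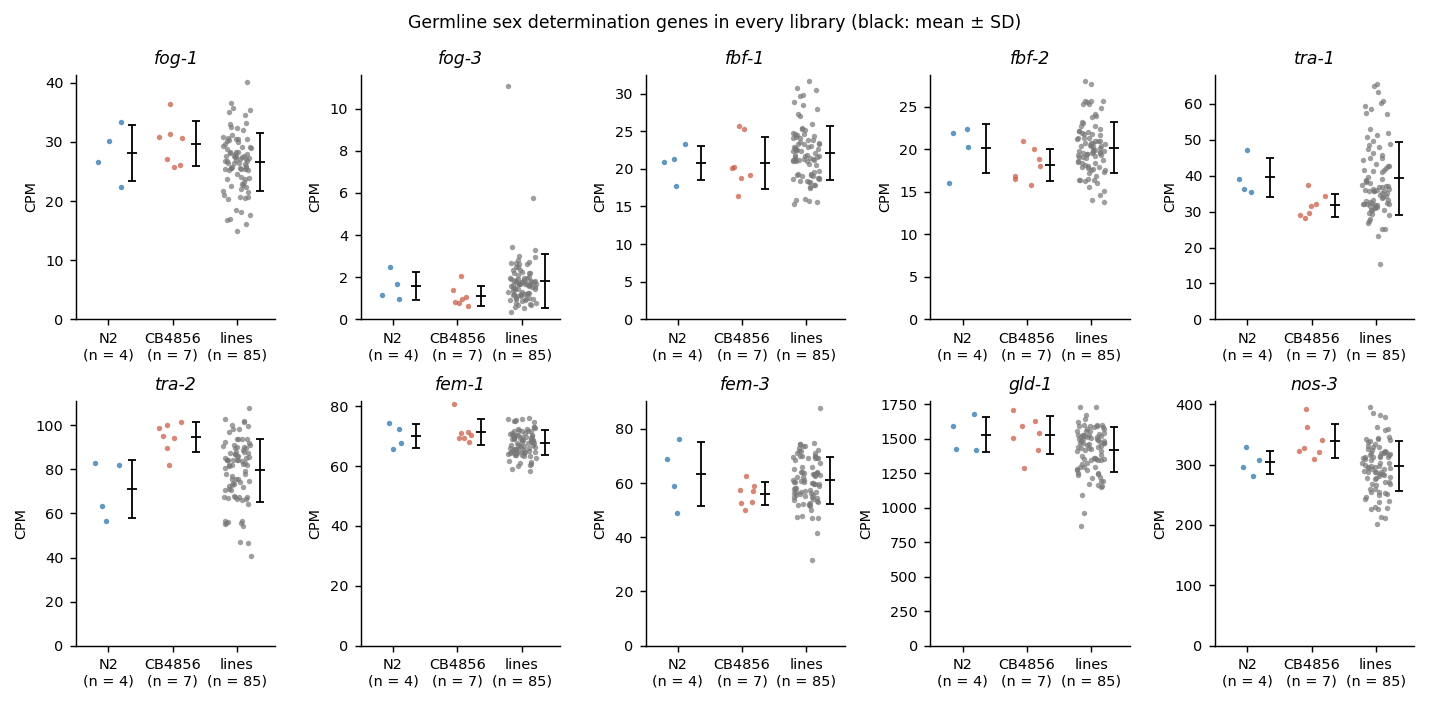
CPM of each of the 10 genes in every library, with 1 point per library, in N2, CB4856 and the lines, and black bars for the mean ± SD. The N2 and CB4856 points overlap for each gene, and line QX501 stands at 11.1 CPM for fog-3.

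The genes that promote sperm fate were compared first, starting with fog-1 and fog-3, which act last in the pathway and are specific to the germline. The gene fog-1 encodes an RNA-binding protein of the CPEB family (WBGene00001481, WBcel235 chromosome I, 3211046 to 3217267, plus strand). Its level in N2 was 30.1, 22.4, 26.6 and 33.4 CPM in batches 3, 6, 8 and 9. The CB4856 libraries ran from 25.7 through a median of 30.7 to 36.3 CPM, and the lines from 14.9 through 26.8 to 40.1. The strains overlapped, and 16 lines lay below all 11 parental libraries while 2 lay above them. The gene fog-3 encodes a Tob-family protein (WBGene00001483, chromosome I, 10016765 to 10018121, plus strand) and was the scarcest and the most variable, on 8 to 259 reads in a line. It stood at 1.18, 1.67, 2.48 and 0.976 CPM in N2 and at 0.652 to 2.07 CPM in CB4856, with a median of 0.972. The lines ran from 0.336 through 1.67 to 11.1 CPM, and 14 of them exceeded every parental library.

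For the FEM genes the levels were steadier. The ankyrin-repeat protein FEM-1 is part of a complex that targets TRA-1 for breakdown, and its gene (WBGene00001411, chromosome IV, 5533140 to 5537962, minus strand) stood at 72.2, 65.7, 67.6 and 74.4 CPM in N2. In CB4856 fem-1 ran from 67.9 through 70.5 to 80.7 CPM, and in the lines from 58.3 through 68.1 to 76.1. No line exceeded the parental libraries and 28 lay below them. The SD of fem-1 among lines was 0.10 on the log2 scale, a smaller spread than in all but 0.152% of the 16500 genes examined. Its partner fem-3 (WBGene00001413, chromosome IV, 9104966 to 9107607, plus strand), whose RNA is the target of FBF, stood at 68.7, 49.1, 58.9 and 76.3 CPM in N2. In CB4856 it ran from 50.2 through 57.02 to 62.5 CPM and in the lines from 31.7 through 60.5 to 87.6. The N2 libraries thus enclosed the whole range of CB4856 for fem-3.

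Of the genes that promote female fate, tra-2 encodes a membrane receptor that holds the FEM proteins in check (WBGene00006605, chromosome II, 6955384 to 6965673, minus strand). It stood at 81.9, 56.4, 63.4 and 82.8 CPM in N2. In CB4856 it ran from 81.9 through 95.3 to 101.7 CPM and in the lines from 40.7 through 82.4 to 107.7. Of the N2 libraries, those of batches 3, 6 and 8 lay below every CB4856 library, that of batch 3 by less than 0.1 CPM, and that of batch 9 overlapped. The gene tra-1 encodes the Gli-family transcription factor at the end of the somatic pathway (WBGene00006604, chromosome III, 11170890 to 11195201, minus strand). It stood at 39.2, 47.3, 36.3 and 35.5 CPM in N2, ran from 28.1 through 31.6 to 37.3 in CB4856, and from 15.5 through 36.4 to 65.7 in the lines. Of the 85 lines, 18 exceeded all parental libraries for tra-1, the most for any of the 10 genes, and 7 lay below.

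The RNA-binding regulators of the switch were the last group. The levels of fbf-1 (WBGene00001401, chromosome II, 6078263 to 6080843, minus strand) were 21.3, 23.3, 20.9 and 17.8 CPM in N2, 16.4 to 25.7 with a median of 20.1 in CB4856, and 15.3 through 21.8 to 31.7 in the lines. Those of fbf-2 (WBGene00001402, chromosome II, 6088863 to 6091480, minus strand) were 22.4, 20.3, 21.9 and 16.05 CPM in N2, 15.8 to 21.01 with a median of 18.1 in CB4856, and 13.8 through 19.9 to 28.1 in the lines. Both genes overlapped between the parents, and 11 and 17 lines respectively lay above all parental libraries. For gld-1 (WBGene00001595, chromosome I, 7695681 to 7698222, plus strand) the N2 libraries held 1593, 1417, 1425 and 1678 CPM. Those of CB4856 ran from 1287 through 1541 to 1710 CPM, and the lines from 869.7 through 1457 to 1730. For nos-3 (WBGene00003785, chromosome II, 9746316 to 9750462, plus strand) the N2 libraries held 328.5, 281.8, 295.7 and 308.0 CPM. Those of CB4856 ran from 309.0 through 327.4 to 391.6 CPM and the lines from 200.8 through 297.0 to 395.9, with 27 lines below every parental library and 1 above. The annotation lets other genes share 51 exon bases of nos-3, 26 of tra-2 and 15 of fbf-1, and reads there were not counted for either gene.

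Between the parents, tra-2 and nos-3 were higher in CB4856 and no other gene of the 10 passed the test. The log2 difference of N2 minus CB4856 for tra-2 was -0.45 ± 0.11 (SE, n = 4 and 7; adjusted p = 0.00833, edgeR's quasi-likelihood test with Benjamini-Hochberg adjustment over all genes), on means of 71.1 ± 13.3 and 94.6 ± 6.89 CPM (SD). For nos-3 it was -0.20 ± 0.07 (adjusted p = 0.0473, same test), on means of 303 ± 19.8 and 339 ± 28.6 CPM. These are 2 of 10 genes, where 33.9% of the 14858 genes tested were called in either direction, 17.9% as higher in N2 and 16% as higher in CB4856, so the share called is no larger than among all genes. No member had groups that did not overlap, against 16.4% of genes tested.

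The batch number pairs N2 with CB4856 libraries. When it entered the model as a replicate block, tra-2 had a log2 difference of -0.43 with an adjusted p of 0.0810 and nos-3 one of -0.21 with an adjusted p of 0.100 (edgeR), so neither passed while the differences were about as large as without the block. Within the batches the log2 difference of tra-2 was -0.31 in batch 3, -0.76 in batch 6 and -0.57 in batch 8 but 0.02 in batch 9. With the mean level of the 12 general germline genes as a covariate, the difference of tra-2 was -0.13 (adjusted p = 0.378) and that of nos-3 -0.01 (adjusted p = 0.949), and fem-3 was called instead, 0.40 higher in N2 (adjusted p = 0.0327, edgeR's quasi-likelihood test). The covariate reduced the genes called to 9.66% of those tested and the block to 14.9%. In the 4 batches with both parents alone, 15.7% of genes and 0 of the 10 were called. Leaving out any 1 of the 11 libraries kept tra-2 past the threshold, with an adjusted p of at most 0.0361, whereas nos-3 missed it in 9 of the 11 fits.

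The other members had intervals around small differences. For tra-1 the log2 difference was 0.28 ± 0.11 (95% interval 0.04 to 0.52, adjusted p = 0.0658, edgeR), and it passed without the CB4856 library of batch 7 (0.34, adjusted p = 0.0268) or the N2 library of batch 9 (0.33, adjusted p = 0.0419). It also passed when only genes with a mean log2 CPM of at least 1 were tested (0.32, adjusted p = 0.0475), where nos-3 did not (adjusted p = 0.0625). For fem-3 it was 0.14 ± 0.10 (-0.08 to 0.36) and for gld-1 -0.03 ± 0.09 (-0.22 to 0.15). For fog-1 it was -0.11 ± 0.12, for fbf-1 -0.04 ± 0.13, for fbf-2 0.11 ± 0.12 and for fem-1 -0.07 ± 0.06. For fog-3 it was 0.46 ± 0.35, with an interval from -0.30 to 1.22, the widest of the 10. None of these 8 is shown to be equal in the strains.

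The balance of a sperm-promoting over an oocyte-promoting gene was then read within each library. The amount of germline enters both terms but need not cancel, since the tra and fem genes also act in the soma. The log2 ratio of fem-3 over tra-2 was -0.25, -0.20, -0.11 and -0.12 in the N2 libraries of batches 3, 6, 8 and 9, a mean of -0.17 ± 0.07 (SD, n = 4). In CB4856 it ran from -0.99 through -0.74 to -0.63, with a mean of -0.76 ± 0.12 (n = 7), so the strains did not overlap. In the 4 batches that hold both parents, N2 was higher in 4, by 0.45 to 0.57. This separation is not rare, since the ratio to tra-2 did not overlap between strains for 28% of genes and the ratio to fem-3 for 23.1%, and no test was made on the ratios. The lines averaged -0.37 ± 0.22 (SD, n = 85), with 16 in the N2 range, 12 in the CB4856 range, 47 between the ranges, 10 above both and 0 below both.

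The other ratios did not separate the parents, where the ratio of 11.1% of genes to fbf-1 and of 12.6% to fog-1 did. That of fbf-2 over fbf-1 was -0.05 ± 0.14 in N2, -0.19 ± 0.15 in CB4856 and -0.13 ± 0.15 in the lines (SD), and the reads lost to both genes by their similarity touch each term. That of fog-3 over fog-1, from -6.11 to -1.69 in the lines, was -4.24 ± 0.78 in N2 and -4.84 ± 0.58 in CB4856.

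**Figure D2:**
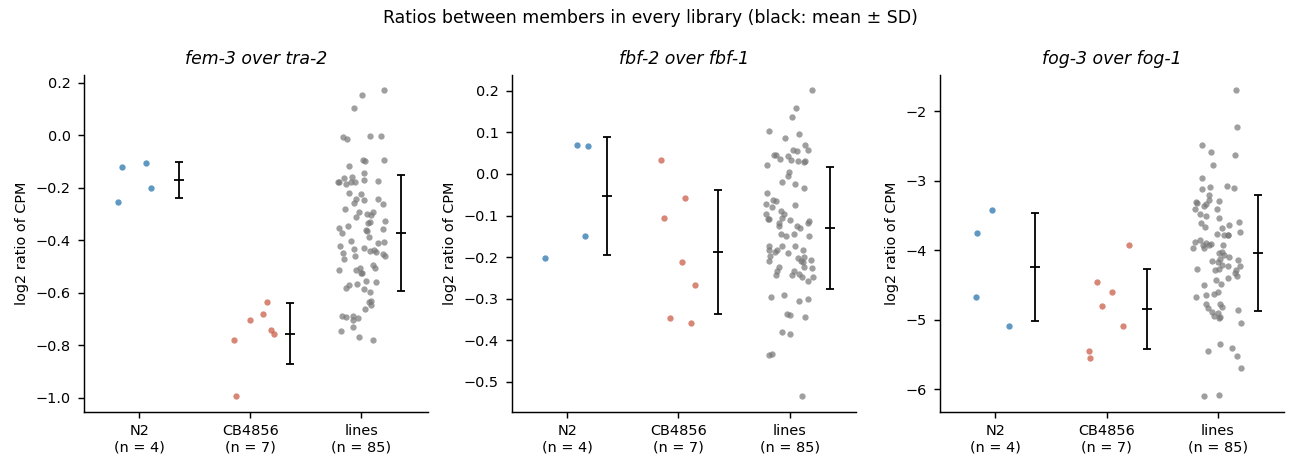
The log2 ratio of CPM of fem-3 over tra-2, fbf-2 over fbf-1 and fog-3 over fog-1, with 1 point per library by strain and black bars for the mean ± SD. The fem-3 over tra-2 points of N2 lie between -0.25 and -0.11, above all CB4856 points, which lie between -0.99 and -0.63.

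Other genes of the pathway were examined from lists of named genes. Of 23 further regulators of the switch and of germline stem cells, 16 were higher in CB4856 and 0 in N2, against 16% and 17.9% of all genes, with a median log2 difference of -0.27 where the median of all genes was 0.03. Those furthest apart were nos-2, a Nanos-family gene, at -0.59 (adjusted p = 0.0172), gld-2, a poly(A) polymerase, at -0.46 (adjusted p = 0.000359), lst-1, a Notch target of the stem cells that works with FBF, at -0.44 (adjusted p = 0.0208) and glp-1, the germline Notch receptor, at -0.42 (adjusted p = 0.00514), all from edgeR's quasi-likelihood test. The F-box gene fog-2, which acts with GLD-1 on tra-2, stood at 41.5 ± 7.51 CPM in N2 and 42.3 ± 3.47 in CB4856 and did not pass (-0.06 ± 0.11, adjusted p = 0.670, edgeR), and it was singled out after its values were seen. Of the 23 genes, 3 passed with the replicate block, where 14.9% of all genes did. They included gld-2 (-0.47, adjusted p = 0.00862, edgeR) and glp-1 (-0.40, adjusted p = 0.049996) but not nos-2 (-0.64, adjusted p = 0.0817) or lst-1 (-0.50, adjusted p = 0.0882). The differences of nos-2 and lst-1 were no smaller than without the block. With the germline covariate 1 passed, gld-2 (-0.42, adjusted p = 0.0127, edgeR), where 9.66% of all genes did. Without the N2 library of batch 6 or of batch 8, 10 and 7 of the 23 passed. Over all genes the calls were then 3364 of 15009 and 3227 of 15014, against 5036 of 14858 in the reported fit.

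Of 8 genes whose messenger RNAs GLD-1 is known to bind, 7 were higher in CB4856 and 0 in N2, against 16% and 17.9% of all genes. Their median log2 difference was -0.41, where that of all genes was 0.03. The largest differences were those of puf-5, an oocyte Pumilio-family gene, at -0.59 (adjusted p = 0.00453, edgeR), rme-2, the yolk receptor of oocytes, at -0.52 (adjusted p = 0.00745), and gna-2, an enzyme that supplies chitin for the eggshell, at -0.45 (adjusted p = 0.00865). Both rme-2 and puf-5 are also in the oocyte list and glp-1 in the germline list, which were also higher in CB4856. With the replicate block 3 of the 8 passed, where 14.9% of all genes did. They included puf-5 (-0.62, adjusted p = 0.0478, edgeR) but not rme-2 (-0.50, adjusted p = 0.0617) or gna-2 (-0.47, adjusted p = 0.0687), whose differences were close to those without the block. With the germline covariate 0 of the 8 passed, where 9.66% of all genes did. Of 8 genes that open the sperm or oocyte programme, 1 was higher in N2 and 2 in CB4856, where 17.9% and 16% of all genes were. The first was cpb-2, a CPEB-family gene, higher in N2 by 1.64 (adjusted p = 0.00592, edgeR). The others were lin-41 and oma-1, oocyte RNA regulators, at -0.86 (adjusted p = 0.000470) and -0.35 (adjusted p = 0.0185). Of these, lin-41 alone passed with the replicate block (-0.88, adjusted p = 0.0148) and with the germline covariate (-0.52, adjusted p = 0.0147).

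Of 11 tested genes of the upstream and somatic pathway, the share called was about that of all genes in either direction, 33.9%. Of the 11, 4 were higher in CB4856 and 0 in N2 (median -0.49), against 16% and 17.9% of all genes. They were tra-3, a calpain protease that acts on TRA-2, at -0.55 (adjusted p = 0.00174, edgeR), sdc-3 and sdc-1, of the sex determination and dosage compensation machinery, at -0.67 (adjusted p = 0.0244) and -0.53 (adjusted p = 0.0175), and sex-1, a nuclear receptor that counts X chromosomes, at -0.48 (adjusted p = 0.0443). With the replicate block tra-3 alone passed (-0.55, adjusted p = 0.0280, edgeR) and with the germline covariate 0 did, against 14.9% and 9.66% of all genes. Without the N2 library of batch 6 or 8 only 1 of the 11 passed, against 3364 of 15009 and 3227 of 15014 genes. The FEM partner fem-2 was at -0.18 ± 0.09 (adjusted p = 0.133, edgeR).

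Against the parental midpoint, none of the 10 genes had a different mean in the lines by edgeR's quasi-likelihood test with Benjamini-Hochberg adjustment, and none had an unadjusted p under 0.05, against 0.0364% of 16500 genes called and 1264 at an unadjusted p under 0.05. DESeq2 also called 0 of the 10. The differences in log2 ran from -0.12 ± 0.09 for fog-1 to 0.15 ± 0.12 for tra-1, apart from fog-3 at 0.45 ± 0.25 (95% interval -0.04 to 0.95).

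The batches were compared over the 85 lines. A difference between the 7 batches was called for 9 of the 10 genes, and for 79.5% of the 16030 genes tested (edgeR's quasi-likelihood test, Benjamini-Hochberg adjustment). Each line is in 1 batch only, so a batch mean mixes any effect of the batch with the lines it held. The share of the variance of log2 CPM that lay between batches was highest for fbf-1 (47.2%, adjusted p = 4.66e-08), tra-1 (41.9%, adjusted p = 4.91e-07) and fbf-2 (37.0%, adjusted p = 1.38e-05), against a median of 25.5% over all genes. Batch 7 had the highest mean of these 3 genes. There tra-1 averaged 48.8 ± 12.3 CPM (SD, n = 11 lines), compared with 29.8 ± 5.64 in batch 3 (n = 10), a ratio of 1.64. The mean of fbf-1 was 26.2 ± 3.15 CPM in batch 7 and 18.96 ± 1.82 in batch 2 (n = 7). The strain CB4856, in every batch, had fbf-1 at 25.3 CPM in batch 7, 25.7 in batch 8 and 16.4 in batch 2. Its tra-1 was highest in batch 7, at 37.3 CPM, and stood at 29.04 in batch 3. For N2 the order of batches 3 and 8 was the reverse of that in the lines. Its tra-1 was 39.2 and 36.3 CPM there, where the lines averaged 29.8 and 45.3. The part of the batch in these means was not tested.

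For the other genes the order of batches was different. The highest means were in batch 3 for fog-1 (31.3 CPM), fem-3 (67.3), gld-1 (1566) and nos-3 (340), and in batch 2 for tra-2 (92.6) and fem-1 (70.9). The lowest means were in batch 6 for fog-1 (23.5 CPM) and fem-1 (64.8), in batch 7 for fem-3 (55.4) and gld-1 (1321), and in batch 8 for tra-2 (69.7) and nos-3 (270). The adjusted p was 6.18e-05 for fem-1, 0.000110 for tra-2, 0.000145 for nos-3, 0.000414 for fog-1, 0.00332 for fem-3 and 0.00689 for gld-1. With the germline list as a covariate fem-3 (0.0658), gld-1 (0.121) and nos-3 (0.153) no longer passed. The call of gld-1 was also lost without batch 3 (adjusted p = 0.112), and fog-3, at an adjusted p of 0.0973, passed only without batch 9 (0.0279), where QX501 lies.

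**Figure D3:**
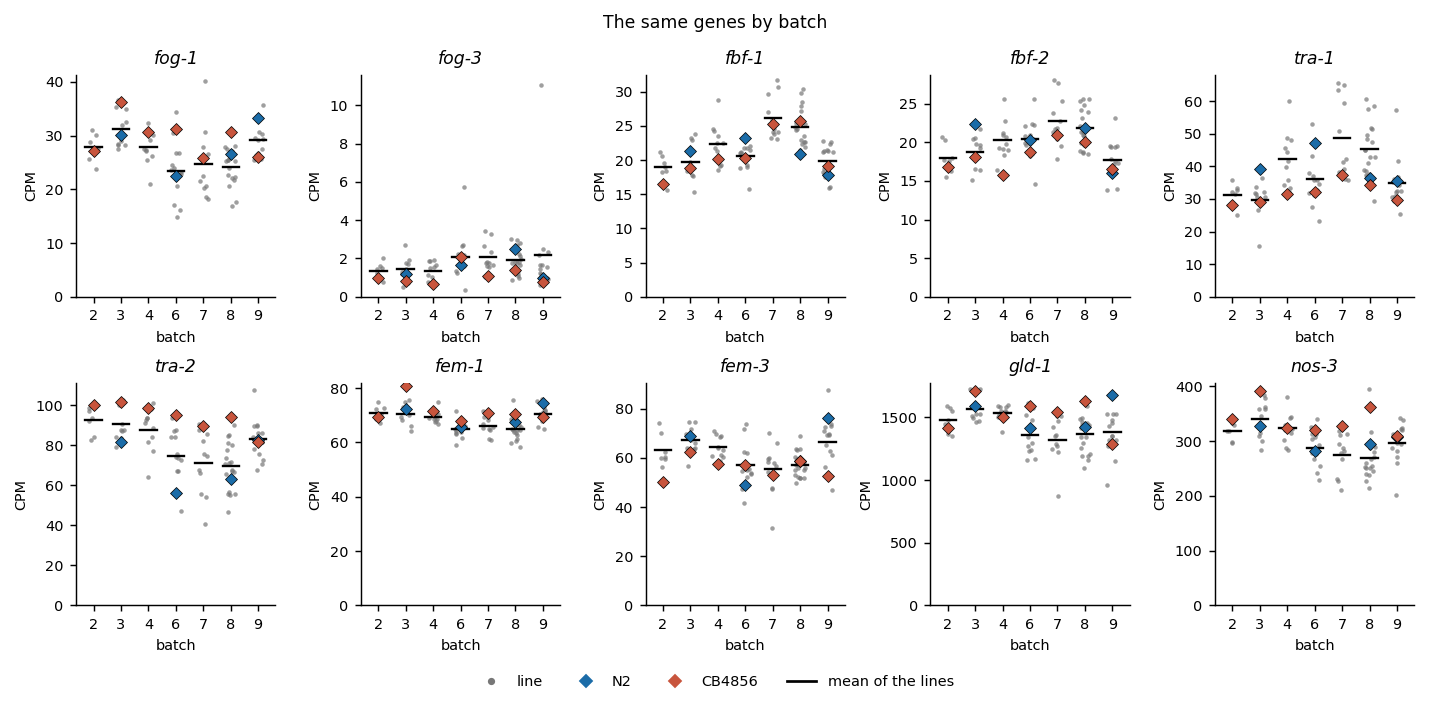
CPM of each gene by batch, with grey points for lines, black bars for their mean and diamonds for the parental libraries. The mean of tra-1 in the lines runs from 29.8 CPM in batch 3 to 48.8 in batch 7, while that of gld-1 runs from 1566 in batch 3 to 1321 in batch 7.

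The spread among lines was set against that within the parental strains. The variance of log2 CPM among lines exceeded the pooled variance of parental libraries for 9 of 10 genes, where 80.2% of genes showed this. With batch means removed from the lines alone it did for 7, where 64.5% did. The parental libraries of a strain, each in another batch, kept their spread between batches, so the second count does not adjust both sides. Before that removal the ratio was 3.67 for tra-1, higher than for 88.8% of genes, 2.81 for nos-3 and 2.35 for tra-2, while the median over all genes was 1.59. It was 1.11 for fbf-2, 1.07 for fbf-1 and 0.988 for fem-1, so for these 3 the lines varied about as much as libraries of a parent.

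Single lines stood out. Line QX571 of batch 7 had the highest fog-1 (40.1 CPM) and tra-1 (65.7) of all lines and the lowest tra-2 (40.7), fem-3 (31.7) and gld-1 (869.7), and its nos-3 level (211 CPM) was the second lowest. Its oocyte list was the lowest of all lines, at 6485 CPM against a median of 13662, and its sperm list stood at 443 CPM against a median of 173. Its germline list was the second lowest, at 2825 CPM against 4611, its yolk list stood at 21333 CPM against 37484, and its moult list at 191 CPM against 90.7. Their part in the levels of this line was not tested. Lines QX573 and QX577, also of batch 7, had fbf-1 at 31.7 and 30.7 CPM, fbf-2 at 27.7 and 28.1, and tra-1 at 63.4 and 65.04. The means of these genes over the lines of batch 7, the highest of any batch, were 26.2, 22.8 and 48.8 CPM. Line QX568 of batch 9 had the highest tra-2 (107.7 CPM) and fem-3 (87.6). These lines were picked after their values were seen, and each rests on 1 library.

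Lines QX501 of batch 9 and QX505 of batch 6 had the highest fog-3, at 11.1 and 5.75 CPM, and the next line had 3.44. The summed male-neuron list was highest in the same lines, at 20.9 and 8.44 CPM against a median of 1.78 in the lines. Of that list, pkd-2 stood at 5.94 CPM in QX501 and 2.51 in QX505, and lov-1 at 3.98 and 1.36, where the other lines reached at most 0.853 and 0.433. Not every gene of the list followed. The level of cwp-4 was 1.28 and 1.24 CPM in these lines but reached 2.10 in another line. That of klp-6 in QX505 was 0.213 CPM, below the median of 0.338 in the lines. The part of the male-neuron list in the fog-3 levels was not tested. The sperm list was highest of all lines in QX501, at 519 CPM.

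Over the 85 lines the genes fell into groups that moved together. In TMM-scaled log2 CPM, 37 of the 45 pairs of genes were correlated at an adjusted p under 0.05 (permutation test, 100000 resamples, two-sided, Benjamini-Hochberg adjustment over the 45 pairs), but 46.3% of all pairs of genes reached the smallest correlation called, 0.265 in size. With batch means removed 29 pairs were called, where 41.3% of all pairs reached the smallest such correlation, 0.269. The pairs share libraries and the total they are scaled to, so the correlations are not independent. The first group held tra-2, gld-1, nos-3, fem-1, fem-3 and fog-1, which were positively correlated with each other in every pair. The highest was that of tra-2 with nos-3, at r = 0.860 and rho = 0.872 (permutation p = 1e-05 for each, the smallest the resamples can give; adjusted p = 2.05e-05). It was 0.832 without the 2 lines of most extreme tra-2, 0.817 with batch means removed, and from 0.227 to 0.934 within the 7 batches. The pair gld-1 and nos-3 had r = 0.846 and rho = 0.786 (same permutation p), 0.811 without the 2 extreme lines and 0.822 with batch means removed, and was positive in 6 of 7 batches. The pair tra-2 and gld-1 had r = 0.807 and rho = 0.793 (same permutation p), 0.746 without the extreme lines, 0.798 with batch means removed and from 0.0830 to 0.930 within batches. The genes tra-2 and fem-3, of opposite roles, were also positively correlated, at r = 0.673 and rho = 0.572 (same permutation p), 0.580 without the extreme lines and 0.585 with batch means removed, with a positive value in 6 of 7 batches.

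The second group held fbf-1, fbf-2 and tra-1. The paralogs fbf-1 and fbf-2 had r = 0.798 and rho = 0.736 (permutation p = 1e-05, adjusted p = 2.05e-05), 0.772 without the 2 extreme lines, 0.721 with batch means removed and from 0.626 to 0.850 within batches. With fbf-1, tra-1 had r = 0.709 and rho = 0.723 (same permutation p), 0.702 without the extreme lines, 0.520 with batch means removed and from 0.268 to 0.872 within batches. The 2 groups, which leave out fog-3, were drawn from these same correlations, so the signs between them are a description and not a separate result. Between the groups r was negative in 18 of 18 pairs, of which 14 passed. With batch means removed it was negative in 14 pairs and 8 passed, 5 of 6 with tra-1 and 3 of 12 with an fbf gene. It was -0.63 for tra-1 with tra-2 (rho = -0.58, same permutation p), -0.65 without the extreme lines and -0.52 with batch means removed, and negative in 6 of 7 batches. For fbf-1 and fbf-2 with gld-1, by contrast, r was -0.07 and -0.14 and neither pair passed (permutation test, adjusted p = 0.530 and 0.217). With batch means removed r was 0.134 for fbf-1 with gld-1, 0.128 for fbf-1 with fem-1 and 0.0703 for fbf-2 with fem-1, and that of fbf-1 with tra-2 went from -0.34 to -0.06 and with nos-3 from -0.31 to -0.07, neither then passing.

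The sperm-fate genes fog-1 and fog-3 did not rise together. Their r was -0.27 and rho -0.34 (permutation p = 0.0148 and 0.00134, adjusted p = 0.0180 and 0.00188), and r was -0.27 without the 2 extreme lines. With batch means removed it was -0.15 and did not pass (adjusted p = 0.252, permutation test), and 5 of 7 batches had a negative value. Without QX501 and QX505, r was -0.37 (adjusted p = 0.00105).

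**Figure D4:**
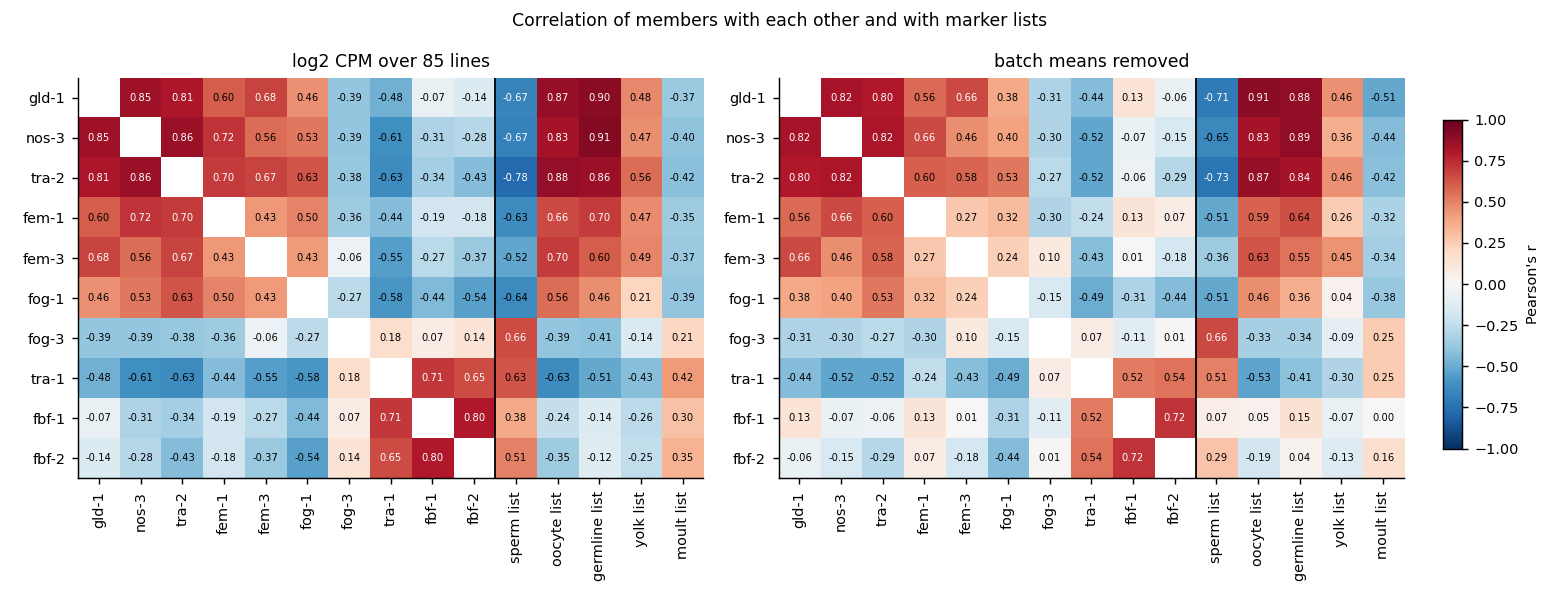
Pearson's r of log2 CPM between the 10 genes and with 5 marker lists over the 85 lines, before (left) and after (right) removal of batch means, on a colour scale from -1 to 1. Red squares join gld-1, nos-3, tra-2, fem-1, fem-3 and fog-1, and join tra-1, fbf-1 and fbf-2, with blue squares between the groups on the left, several of which turn pale or positive for fbf-1 and fbf-2 on the right.

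Each gene was then set against the marker lists, a list's value being the mean TMM-scaled log2 CPM of its genes, not their summed CPM. Of 50 pairs of a gene and a list 45 passed (permutation test, 100000 resamples, adjusted over the 50 pairs). The share of all genes that reached the smallest called correlation, 0.238 in size, was 73.9% for the sperm list, 76.4% for the oocyte list, 76.6% for the germline list, 59.3% for the yolk list and 55.9% for the moult list. With batch means removed 39 pairs passed, and these shares were 69%, 74.1%, 74.1%, 45.6% and 52%. The gene nos-3 followed the germline list with r = 0.914 and rho = 0.908 (permutation p = 1e-05, adjusted p = 1.85e-05), 0.899 without the 2 extreme lines, 0.888 with batch means removed and from 0.496 to 0.953 within batches. With the oocyte list tra-2 had r = 0.880 and rho = 0.809 (same permutation p), 0.838 without the extreme lines, 0.873 with batch means removed and from 0.263 to 0.956 within batches. For gld-1 and the oocyte list r was 0.873 and rho 0.800 (same permutation p), with 0.811 without the extreme lines, 0.906 with batch means removed and from 0.745 to 0.967 within batches. The levels of these 3 genes thus moved with the mean log2 level of the germline or oocyte markers of a library.

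Against the sperm list the FOG genes had opposite signs. For fog-3 r was 0.656 and rho 0.657 (permutation p = 1e-05, adjusted p = 1.85e-05), 0.625 without the 2 extreme lines, 0.612 without QX501 and QX505, 0.662 with batch means removed and from 0.329 to 0.848 within batches. For fog-1 r was -0.64 and rho -0.64 (same permutation p), -0.61 without the extreme lines, -0.51 with batch means removed and negative in 7 of 7 batches. For tra-1, by contrast with tra-2 at -0.78, r with the sperm list was 0.631 (rho = 0.641, same permutation p), 0.616 without the extreme lines, 0.507 with batch means removed and positive in 7 of 7 batches. The fbf genes did not keep this relation. For fbf-1 r with the sperm list was 0.379 (rho = 0.426, permutation test, adjusted p = 0.000457) but 0.0698 with batch means removed, and it then passed with 0 of the 5 lists. For fbf-2 it was 0.506 (rho = 0.530, permutation test, adjusted p = 1.85e-05) and 0.285 with batch means removed (adjusted p = 0.0177), the only list that fbf-2 then passed with.

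**Figure D5:**
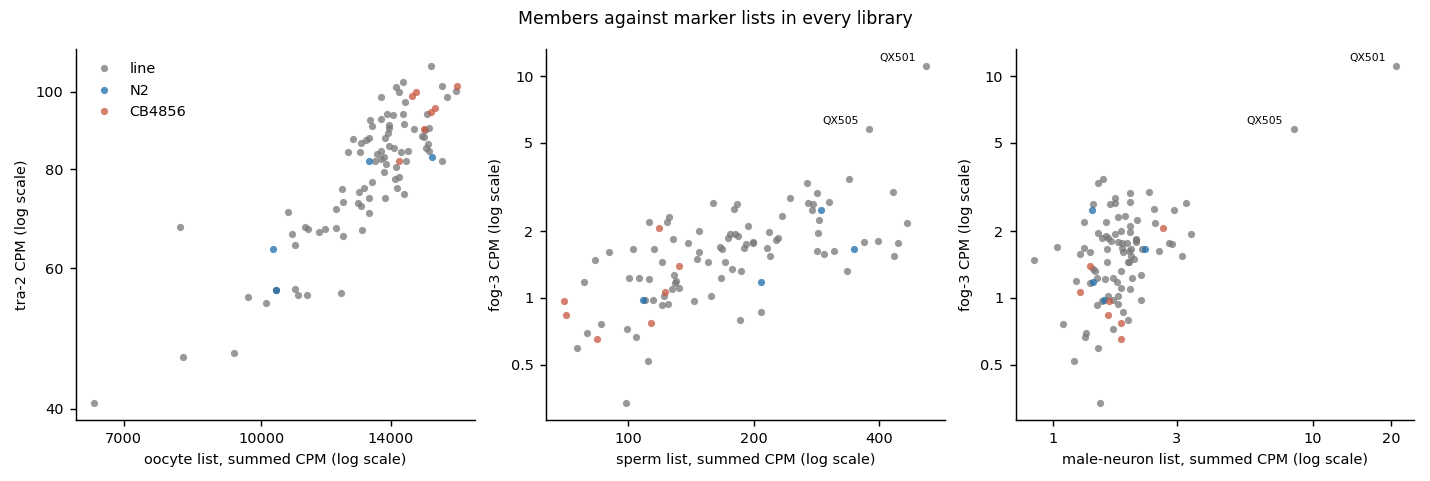
Levels in every library on log scales, for tra-2 against the summed oocyte list (left) and fog-3 against the summed sperm list (middle) and male-neuron list (right), in CPM. Lines QX501 and QX505 stand apart at 20.9 and 8.44 CPM of the male-neuron list.

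The genes whose pattern over the 85 lines was most like each member were named by r of log2 CPM with batch means removed, among 16490 other genes, as a description. For tra-2 they were capg-2 (0.960), pbrm-1 (0.941) and swsn-4 (0.940), for gld-1 cgh-1 (0.959), which is itself in the germline list, rad-23 (0.939) and npp-9 (0.920), and for nos-3 hsr-9 (0.933), T21B10.3 (0.931) and F54E12.2 (0.930). The values were lower for the rest. For fog-3 they were ZK616.65 (0.704), fer-1 (0.701), which is in the sperm list, and ZC513.3 (0.699), and for fog-1 ess-2 (0.790), mett-10 (0.785) and pir-2 (0.784). For fbf-1 they were the ribosomal protein gene rps-13 (0.728), Y48A6B.3 (0.718) and rps-16 (0.718), and for fbf-2 gldi-1 (0.771), Y54E10A.10 (0.709) and mrpl-22 (0.708). For tra-1 they were nrsn-1 (0.728), kin-2 (0.722) and cah-6 (0.700), for fem-1 vps-33.1 (0.781), math-33 (0.770) and hda-6 (0.757), and for fem-3 F44E2.10 (0.780), mspn-1 (0.757) and T28A8.6 (0.756).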

How the data were processed

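Total RNA of whole animals was sequenced on the BGISEQ-500, per the labels' protocols. The authors deposited whole-number read counts per gene for each library, not normalised, in the layout of STAR's gene counting; STAR 2.73a, FastQC, DESeq2 and build WBcel235 are named in the submitters' processing notes, with no role or order. The annotation the authors counted on is not given in the sources used here. Reads mapping to several places or overlapping several genes are kept in separate totals. The strand columns were near equal (ratio 0.957 to 1.04), so the unstranded counts were used and antisense genes cannot be separated. Reads naming no gene (6.11% to 9.98%) stayed out of library sizes. WBcel235 is the N2 genome, and loss of CB4856 reads to sequence differences was not measured.

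Symbols, exon lengths and positions came from the Ensembl 115 annotation, in which 46817 identifiers were found. CPM is scaled to gene counts. Tests used edgeR 4.0.16 under R 4.3.3 (filterByExpr, TMM, robust quasi-likelihood test, two-sided, Benjamini-Hochberg adjustment over all genes tested, threshold 0.05), on the parents alone, on batches among the lines, and on the lines against the midpoint of the parental log levels. Fold changes are TMM-scaled, levels are not. Correlations used TMM-scaled log2 CPM with a prior count of 2, averaged over the tested genes of a marker list. The fits were tested on simulated data. Alternatives were RLE factors, other filters, DESeq2 1.42.0, a germline covariate, a replicate block and leaving out libraries or batches. The batch in the titles pairs the parents; the deviations of paired libraries correlated across genes at 0.258, 0.0831, 0.505 and 0.139 in batches 3, 6, 8 and 9. The members, lists and tests were chosen with earlier results of these data known. All members were named, with up to 4 called genes of each pathway list by size and the 3 genes most like each member. Of the switch list, 23 of 24 genes were found.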

Additional observations from a re-analysis of the deposited data

Results flagged for a closer look

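Of 40 groups of 4 to 10 libraries examined for a value far from the rest, 2 had one, where chance gives about 1 in 20 groups. The level of fem-1 in the CB4856 library of batch 3 was 80.7 CPM, while the other 6 CB4856 libraries lay between 67.9 and 71.5 CPM. The level of tra-1 in line QX547 was 15.5 CPM, the lowest of the 10 lines of batch 3, of which the others lay between 26.7 and 36.4 CPM. The same line had the lowest fbf-1 of all lines, 15.3 CPM.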

How the results depend on the processing

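Of the 10 genes, 2 were called between the parents in the reported fit, 1 with RLE size factors, 1 without a filter, 2 at a mean log2 CPM of at least 1 (tra-1 in place of nos-3), 1 with the germline covariate (fem-3 in place of tra-2 and nos-3), 0 with batch as a replicate block, 0 in the 4 batches that hold both parents (chosen after seeing the data; 15.7% of genes called) and 1 to 2 when libraries were left out one at a time. Adjusted p for tra-2 was 0.0690 in those batches. DESeq2 kept both calls. The germline covariate turned the sign of fog-1 to 0.19, of fem-1 to 0.061 and of gld-1 to 0.21, none called. With single libraries left out, the log2 difference of fbf-1 ran from -0.10 to 0.042 (above 0 without CB4856 batch 7 or 8 or N2 batch 9) and that of gld-1 from -0.085 to 0.024 (above 0 without CB4856 batch 3 or 8 or N2 batch 8). Against the midpoint, tra-2 turned to 0.028 with the covariate and ran from -0.084 to 0.0089 with libraries left out (above 0 without N2 batch 3 or 9), and fem-3 from -0.0078 (without N2 batch 6) to 0.100. The cause was not tested. Batch calls stayed at 6 to 10, midpoint calls at 0, and correlated pairs at 29 to 41 and 39 to 48. Without QX501 and QX505 (chosen after seeing the data) 41 and 47 pairs passed. Over all genes, 5036 were called between the parents, 2212 with the block, 1435 with the covariate and 3227 without N2 batch 8; against the midpoint 6, but 52 with DESeq2, 16 with the block and 4 without N2 batch 6 or 9. The block changed no other call among the 10 genes. Each line has 1 library, fog-3 rests on 8 to 259 reads in a line and was not tested at a mean log2 CPM of at least 1, and counts cover counting error of reads, not molecules.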
